A study of Homo sapiens with 9 samples.

Results

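The transcription factors that direct granulocyte and monocyte fate were examined in MOLM13 cells with reduced DDX41, an RNA helicase of the DEAD-box family. The 9 genes SPI1, CEBPA, CEBPB, CEBPD, CEBPE, GFI1, IRF8, RUNX1 and ZEB2 were taken by symbol from the 30017 genes of the count table, and all 9 passed the filter on low counts that left 12712 genes. MOLM13 is a human acute myeloid leukemia line with monocytic features, and all groups came from this 1 line. Cells were transduced with a lentivirus that carries GFP and a short hairpin RNA, and GFP-positive cells were sorted on day 4. The groups were sh-Control, a control hairpin, and the DDX41 hairpins shDDX41 #1 and shDDX41 #2, with 3 libraries each (replicates A, B and D). The study describes its quantified assays in general as biological replicates, while the labels do not say whether these libraries came from separate cultures, so p-values measure the spread between these samples.

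PU.1, the product of SPI1, and the C/EBP proteins bind the promoters and enhancers of most myeloid genes. RUNX1 acts upstream of both in the progenitor. GFI1 and IRF8 then pull in opposite directions: GFI1 is a repressor needed for neutrophils, and IRF8 is an activator of the monocyte and dendritic programs that restrains the granulocyte one. CEBPE drives the late steps of granulocyte maturation, CEBPB and CEBPD act in maturation and in stress and inflammatory responses, and ZEB2 is a zinc finger repressor of the myeloid and dendritic lineages.

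The RefSeq promoter table held 7 of the 9 genes, with no entry matched for SPI1 and CEBPD. A pair of stretches is shown, both on GRCh38.p14, on the minus strand and written 5′ to 3′. The stretch of GFI1 is shown because it held the letters of motifs for other factors of the group. It lies at chr1:92486100-92486349, the 250 bases before a RefSeq transcript start 826 bases inside the gene, and the capitals mark a C/EBP motif (TTGCNNAA) 142 bases and a RUNX motif (TGTGGT) 47 bases before that start. The stretch of CEBPA is shown because it lies between CEBPA and its divergent non-coding neighbour CEBPA-AS1, whose level is described after the factors. It covers chr19:33302565-33302784, within the 286 bases that separate the genes in RefSeq, and has no capitals since no searched motif was found in it.
GFI1: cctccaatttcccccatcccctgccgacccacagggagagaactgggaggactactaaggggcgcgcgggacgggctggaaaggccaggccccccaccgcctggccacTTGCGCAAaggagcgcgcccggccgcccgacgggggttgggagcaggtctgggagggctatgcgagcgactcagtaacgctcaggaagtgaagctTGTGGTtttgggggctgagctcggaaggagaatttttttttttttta
CEBPA: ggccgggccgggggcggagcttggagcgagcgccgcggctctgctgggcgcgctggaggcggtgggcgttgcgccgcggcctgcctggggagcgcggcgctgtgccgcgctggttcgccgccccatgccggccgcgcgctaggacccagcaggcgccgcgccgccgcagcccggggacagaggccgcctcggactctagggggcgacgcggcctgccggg

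Motifs were searched on both strands as plain letters, and each match is a description of the sequence. C/EBP letters were found in 9.05% and RUNX letters in 11.0% of 34788 windows of 250 bases before RefSeq starts. The other motifs searched were PU.1 (GAGGAA, 23.6%), ZEB (CAGGTG, 17.5%), GFI1 (AAATCA, 11.6%), STAT (TTCNNNGAA, 6.57%) and IRF (GAAA followed after any 2 bases by GAAA, 3.02%). The window at the 5′ end of GFI1 held none of them. The window of CEBPE held STAT letters 242 bases and PU.1 letters 41 bases before its start, and that of ZEB2 held IRF letters 85 bases before its start. The windows available for IRF8 belong to starts 3668 and 3853 bases inside the gene, and held RUNX and ZEB letters. By the exons of GENCODE v29, all 250 bases of the CEBPE and ZEB2 windows lie in exons of the same gene, as do 141 and 250 bases of the IRF8 windows. PU.1 letters were also found in the RUNX1 window, 44 bases before its start, and in a GFI1 window 3111 bases inside the gene, 30 bases before its start. The CEBPB windows held no searched motif.

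Libraries held 16385238 to 20510032 counts. Levels are CPM (counts scaled to library size, after TMM normalisation), as mean ± SD over 3 libraries. DDX41 was 115 CPM with sh-Control, 11.7 CPM with shDDX41 #1 (10.2% of control, adjusted p = 4.1e-12 by edgeR's quasi-likelihood test) and 40.4 CPM with shDDX41 #2 (35.2%, adjusted p = 7.0e-09). The library shDDX41 #1 D stood apart from its replicates, with a chi-square of its counts per degree of freedom of 17.7 and 19.2 against A and B, which differed from each other by 2.91, and results that change without it are given both ways. By the same measure the pairs within sh-Control stood at 8.05 to 10.2, and those within shDDX41 #2 at 2.46 to 3.26. Of 8 markers of MOLM13 cells, all were detected, with summed levels of 1700.3 to 1774 CPM in sh-Control, 1753 to 1793 in shDDX41 #1 and 2582 to 2617 in shDDX41 #2, and LYZ was the highest of them. The higher sum with shDDX41 #2 followed LYZ, at a mean of 931 CPM in sh-Control and 1818 CPM with shDDX41 #2. Of the other markers, only ITGAM passed an adjusted p under 0.05 by edgeR with shDDX41 #2 (12.5 CPM in sh-Control, 17.9 CPM with shDDX41 #2). With shDDX41 #1, 6 of the 8 markers passed that threshold, 4 higher and 2 lower, where 47.8% of all tested genes passed. CD33, CD68 (1.34-fold), FLT3 and HOXA9 were higher, and CSF1R (55.1% of control) and MEIS1 were lower. The monocyte surface marker CD14 had 0 to 3 counts per library. Of 8 erythroid and megakaryocyte markers, GATA1, HBG1, HBA1 and PF4 were at 0 in every library and the summed level was 10.7 to 13.8 CPM, nearly all from EPOR. The summed level of 8 lymphoid markers was 1.63 to 2.28 CPM in sh-Control, 1.27 to 1.50 in shDDX41 #1 and 2.49 to 3.33 in shDDX41 #2, and PAX5 and CD3G were at 0 in all libraries.

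IRF8 rose with both DDX41 hairpins, CEBPE fell with shDDX41 #1, and SPI1, CEBPA, RUNX1 and ZEB2 were called in no comparison. With shDDX41 #1 against sh-Control, 2 of the 9 factors were called at an adjusted p under 0.05 (IRF8 higher, CEBPE lower), where 47.8% of all tested genes were called, 23.7% higher and 24.1% lower. With shDDX41 #2 against sh-Control, 1 of 9 was called (IRF8, higher), where 25% of tested genes were called, 11.6% higher and 13.4% lower. Both comparisons use the same sh-Control libraries. Between the hairpins, 3 of 9 were called (CEBPB, GFI1 and IRF8, all higher with shDDX41 #1), where 48.8% of tested genes were called, 24.6% higher and 24.2% lower. The median log2 fold change of the factors was 0.0014 with shDDX41 #1 and -0.14 with shDDX41 #2, and that of all tested genes was 0.012 and -0.011. Under upper quartile scaling, the calls over all genes with shDDX41 #1 were 3849 higher and 2453 lower, in place of 3010 and 3068. Without the library shDDX41 #1 D, 4 factors were called with shDDX41 #1 (GFI1 and CEBPD added) and 3 with shDDX41 #2 (GFI1 and CEBPD added), where 48.5% and 32.9% of the genes then tested were called.

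**Figure D1:**
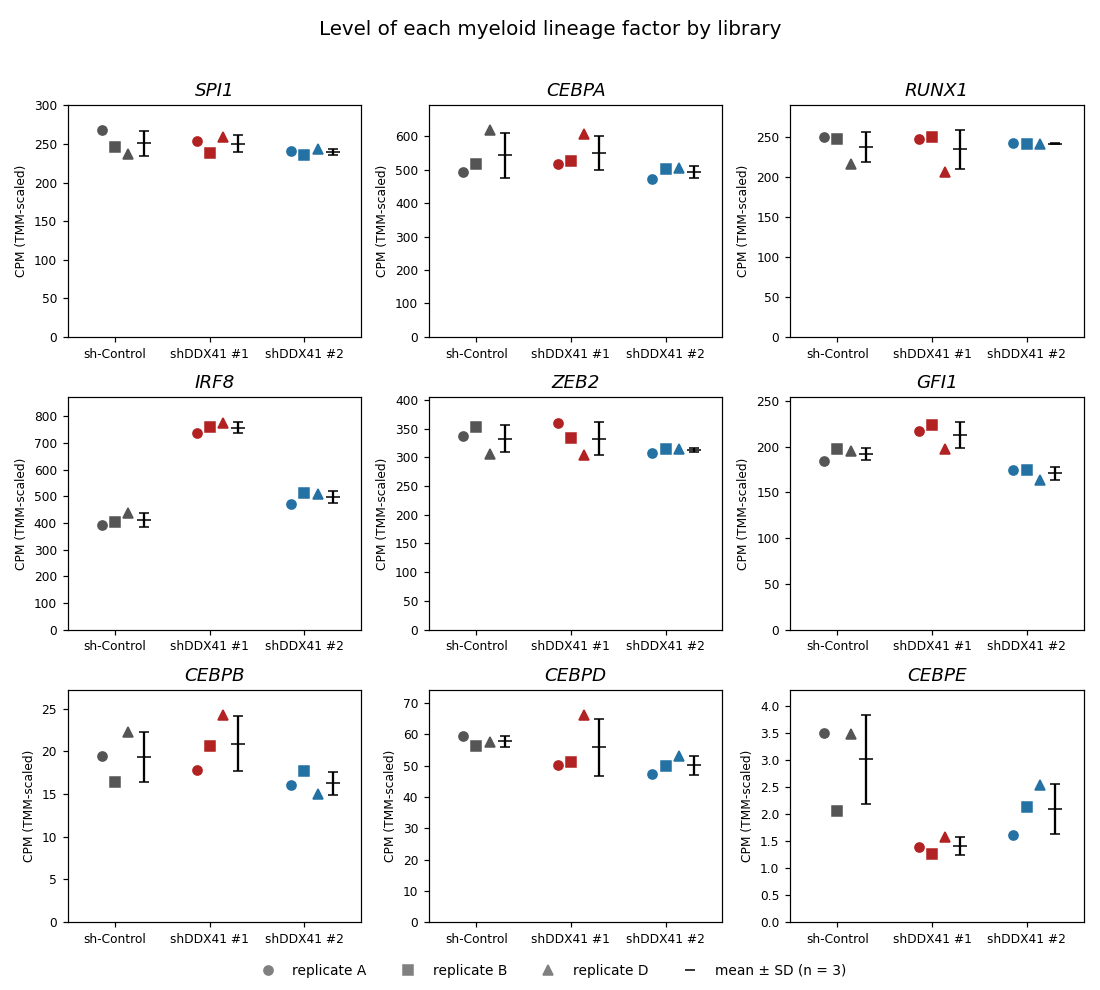
Level of each factor in each library, in TMM-scaled CPM on an axis that starts at 0. Circles, squares and triangles are replicates A, B and D, and bars give the mean ± SD of 3 libraries. The IRF8 panel shows 3 separate groups, at 411, 497 and 758 CPM, while the SPI1, RUNX1 and ZEB2 groups overlap.

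**Figure D2:**
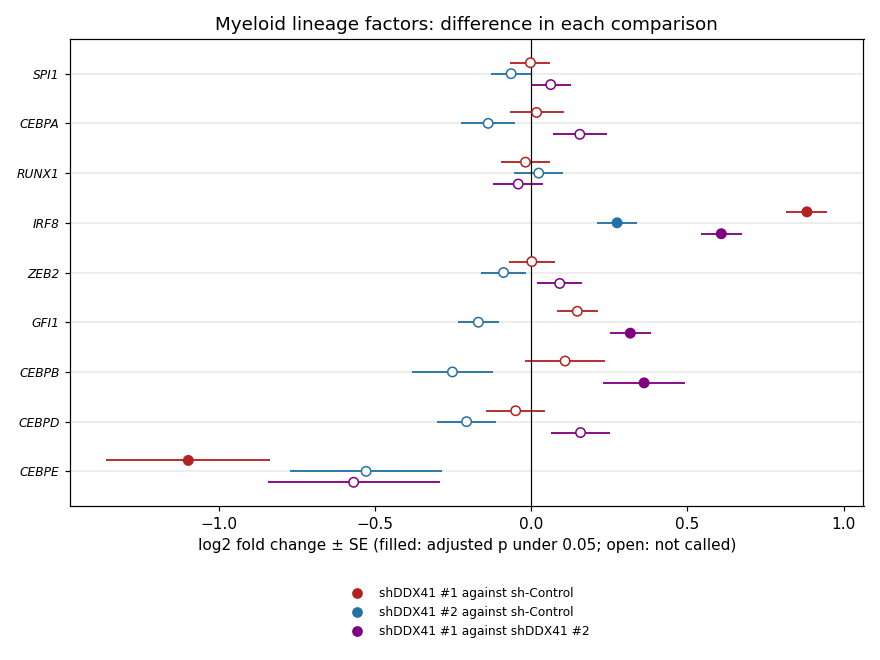
Log2 fold change ± SE of each factor in the 3 comparisons, from edgeR. Filled points passed an adjusted p under 0.05 and open points did not. IRF8 is filled in all 3 comparisons, at 0.88, 0.27 and 0.61.

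SPI1 (chr11:47354860-47378547 on GRCh38.p14, by RefSeq, as for the positions that follow) encodes PU.1, the ETS factor that myeloid cells depend on from the progenitor onward. It was measured at 269, 247 and 238 CPM in sh-Control replicates A, B and D, at 254, 238 and 260 CPM with shDDX41 #1, and at 241, 236 and 243 CPM with shDDX41 #2. All 9 libraries lay within this narrow range and the groups overlapped. The log2 fold change was -0.0031 (95% interval -0.14 to 0.13, adjusted p = 0.97) with shDDX41 #1 and -0.065 (-0.20 to 0.072, adjusted p = 0.49) with shDDX41 #2. The direction with shDDX41 #1 turned under upper quartile scaling (0.073), with no call.

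RUNX1 (chr21:34787801-35049302), the DNA-binding subunit of core binding factor, was measured at 250.4, 247 and 216 CPM in sh-Control, at 248, 249.7 and 206 CPM with shDDX41 #1 and at 242, 242 and 241 CPM with shDDX41 #2. Replicate D was the lowest in sh-Control and in shDDX41 #1, and the groups overlapped. Its log2 fold change was -0.019 (95% interval -0.19 to 0.15, adjusted p = 0.86) with shDDX41 #1 and 0.023 (-0.15 to 0.19, adjusted p = 0.86) with shDDX41 #2.

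CEBPA (chr19:33299934-33302534) encodes C/EBPα, the factor that carries progenitors into the granulocyte and monocyte path. It was the most abundant factor of the group per length, at 493, 518 and 619.7 CPM in sh-Control, 516, 526 and 608 CPM with shDDX41 #1, and 473, 503 and 505 CPM with shDDX41 #2. Replicate D was the highest in each group. The shDDX41 #2 libraries lay below all shDDX41 #1 libraries and overlapped with sh-Control. The log2 fold change was 0.017 (95% interval -0.17 to 0.20, adjusted p = 0.89) with shDDX41 #1, -0.14 (-0.32 to 0.046, adjusted p = 0.26) with shDDX41 #2, and 0.16 (-0.0295 to 0.34, adjusted p = 0.15) between the hairpins.

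IRF8 (chr16:85899162-85922609) was measured at 392, 403 and 439 CPM in sh-Control, at 738, 761 and 776 CPM with shDDX41 #1 and at 469.97, 513 and 509 CPM with shDDX41 #2. No library of 1 group reached into another, and the order was sh-Control, shDDX41 #2, shDDX41 #1. IRF8 rose 1.84-fold with shDDX41 #1 (log2 fold change 0.88, SE 0.0656, adjusted p = 7.9e-08 by edgeR) and 1.21-fold with shDDX41 #2 (0.27, SE 0.0653, adjusted p = 0.0067). The hairpins differed from each other by 0.61 (SE 0.0653, adjusted p = 2.8e-06). In bulk RNA, a change in the share of cells that express a gene and a change in RNA per cell cannot be told apart. All 3 calls held under each of 18 alternative fits and at an adjusted p under 0.01, with log2 fold changes of 0.85 to 0.96, 0.24 to 0.32 and 0.57 to 0.65.

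GFI1 (chr1:92473043-92486925), the zinc finger repressor that opposes PU.1 and monocyte genes in neutrophil precursors, was measured at 184, 197 and 195 CPM in sh-Control, at 217, 223 and 197 CPM with shDDX41 #1, and at 175, 174 and 163 CPM with shDDX41 #2. The 3 groups did not overlap, although the lowest shDDX41 #1 library (D) lay just above the highest sh-Control library. Neither hairpin passed the test against sh-Control, with a log2 fold change of 0.15 with shDDX41 #1 (SE 0.0658, adjusted p = 0.077) and one of -0.17 with shDDX41 #2 (SE 0.0659, adjusted p = 0.072). Between the hairpins GFI1 was 1.25-fold higher with shDDX41 #1 (0.32, SE 0.0659, adjusted p = 0.0010), a call that held under all 18 alternative fits. Without the library shDDX41 #1 D, both comparisons with sh-Control were called, at 0.21 (adjusted p = 0.0061) and -0.16 (adjusted p = 0.025).

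ZEB2 (chr2:144384081-144520119) was measured at 338, 353 and 306 CPM in sh-Control, at 361, 334 and 304 CPM with shDDX41 #1 and at 308, 314 and 315 CPM with shDDX41 #2. The spread within sh-Control and within shDDX41 #1 covered the shDDX41 #2 libraries. Its log2 fold change was 0.0014 (95% interval -0.15 to 0.16, adjusted p = 0.99) with shDDX41 #1 and -0.089 (-0.24 to 0.066, adjusted p = 0.40) with shDDX41 #2.

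CEBPE (chr14:23117306-23119255), the C/EBP factor of late granulocytes, was the least abundant factor, with 21 to 66 counts per library. It was measured at 3.50, 2.06 and 3.48 CPM in sh-Control, at 1.39, 1.26 and 1.58 CPM with shDDX41 #1 and at 1.62, 2.13 and 2.55 CPM with shDDX41 #2. The shDDX41 #1 libraries lay below all others, and the shDDX41 #2 libraries overlapped with sh-Control, whose replicate B was low. CEBPE fell to 46.7% of control with shDDX41 #1 (log2 fold change -1.10, SE 0.263, adjusted p = 0.0030), and this call held under all 18 alternative fits at -1.30 to -0.98. With shDDX41 #2 it was at 69.3% of control (-0.53, SE 0.244, adjusted p = 0.13), which was called without sh-Control B (-0.73, adjusted p = 0.044). The hairpins did not pass the test against each other (-0.57, 95% interval -1.16 to 0.018, adjusted p = 0.10).

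CEBPB (chr20:50190583-50192690) encodes a C/EBP factor induced in emergency granulopoiesis and macrophage activation. It was measured at 19.5, 16.4 and 22.3 CPM in sh-Control, at 17.8, 20.7 and 24.3 CPM with shDDX41 #1 and at 16.1, 17.7 and 15.0 CPM with shDDX41 #2. The groups of both hairpins overlapped with sh-Control but not with each other. The log2 fold change was 0.11 (adjusted p = 0.51) with shDDX41 #1, -0.25 (adjusted p = 0.17) with shDDX41 #2 and 0.36 (SE 0.130, adjusted p = 0.032) between the hairpins. The last call does not pass an adjusted p under 0.01 and was lost at 0.05 in 4 of the 18 alternative fits, without shDDX41 #1 B (adjusted p = 0.059), shDDX41 #1 D (0.12), shDDX41 #2 A (0.083) or shDDX41 #2 D (0.12).

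CEBPD (chr8:47736913-47738164), a C/EBP factor induced by cytokines, was measured at 59.6, 56.2 and 57.6 CPM in sh-Control, at 50.1, 51.1 and 66.2 CPM with shDDX41 #1 and at 47.2, 49.8 and 53.2 CPM with shDDX41 #2. Replicate D of shDDX41 #1 was above and its partners below all sh-Control libraries, while all shDDX41 #2 libraries lay below sh-Control. CEBPD was called in no comparison, with a log2 fold change of -0.050 (adjusted p = 0.69) with shDDX41 #1 and -0.21 (SE 0.0944, adjusted p = 0.12) with shDDX41 #2. Without the library shDDX41 #1 D, both were called, at -0.18 (adjusted p = 0.043) and -0.20 (adjusted p = 0.021).

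By library, 3 factors did not overlap between shDDX41 #1 and sh-Control (IRF8, GFI1, CEBPE), where 53.1% of tested genes did not overlap. The same count between shDDX41 #2 and sh-Control was 3 (IRF8, GFI1, CEBPD), against 43.8% of tested genes. Between the hairpins it was 5 (IRF8, GFI1, CEBPA, CEBPB, CEBPE), against 57.7%. An exact two-sided permutation test of 3 against 3 libraries cannot give a p below 0.1, and the calls given here come from the edgeR model over all genes.

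Levels were compared between factors as CPM per kilobase of exon (exon lengths of GENCODE v29). In sh-Control the order was CEBPA at 207 ± 25.5, SPI1 at 121 ± 7.69, IRF8 at 98.0 ± 5.92, GFI1 at 62.7 ± 2.21, RUNX1 at 28.9 ± 2.30, CEBPD at 26.5 ± 0.778, ZEB2 at 24.9 ± 1.78, CEBPB at 9.91 ± 1.50 and CEBPE at 1.94 ± 0.528 CPM per kilobase (SD, n = 3). The ranges of mean ± SD overlapped among RUNX1, CEBPD and ZEB2, and those of the other neighbours in the order did not. The SD is over libraries and leaves out the choice of exon length, here the union of all exons of a gene. The order between factors was therefore not tested. With shDDX41 #1, IRF8 stood at 181 ± 4.64 CPM per kilobase, above SPI1 at 121 ± 5.41 and below CEBPA at 209 ± 19.1. With shDDX41 #2, the ranges of IRF8 at 119 ± 5.68 and SPI1 at 116 ± 1.69 CPM per kilobase overlapped.

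The factors of smallest p in an F test over the 3 groups were IRF8, GFI1 and CEBPE, and the tested genes whose log2 CPM followed each most closely over the 9 libraries are given as a description. For IRF8 they were WBP1L (Pearson r = 0.991), ZNF189 (0.990) and ALDH4A1 (0.987). For GFI1 they were HEATR6 (0.982), SLC25A37 (0.977) and TNFRSF10A (0.977), and for CEBPE they were EMD (0.980), XBP1 (0.938) and ZNF511 (0.937). The 9 points share 3 groups, so such values follow group differences as much as the spread within them.

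CEBPA-AS1, a non-coding RNA transcribed away from CEBPA (named CEBPA-DT in RefSeq), was measured at 2.83, 2.35 and 3.74 CPM in sh-Control, at 7.11, 6.53 and 7.89 CPM with shDDX41 #1, and at 3.03, 4.12 and 3.52 CPM with shDDX41 #2, from 41 to 130 counts. Only the shDDX41 #1 libraries stood apart from sh-Control. CEBPA-AS1 rose 2.40-fold with shDDX41 #1 (log2 fold change 1.26, SE 0.184, adjusted p = 5.4e-05) and did not pass the test with shDDX41 #2 (0.25, adjusted p = 0.37). The hairpins differed by 1.01 (adjusted p = 0.00029), while CEBPA itself was called in no comparison. The labels and the methods name different kits, 1 stranded and 1 not, so reads from opposite strands may not be separable here. Antisense transcripts overlap the exons of CEBPA by 659 and 482 bases, of CEBPB by 231 bases and of ZEB2 by 356 bases (ZEB2-AS1, 5 to 18 counts, not called).

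**Figure D3:**
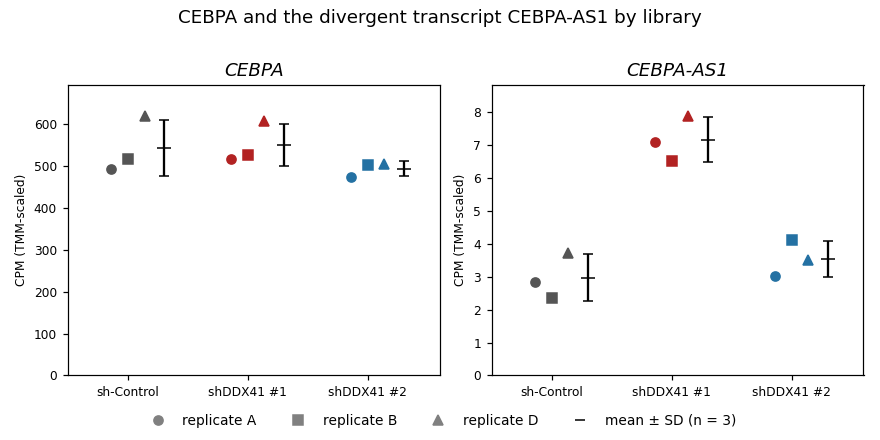
Levels of CEBPA and of its divergent neighbour CEBPA-AS1 by library, in TMM-scaled CPM on axes that start at 0, with the mean ± SD of 3 libraries. CEBPA-AS1 sits at 6.53 to 7.89 CPM with shDDX41 #1 and at 2.35 to 4.12 CPM in the other libraries, and CEBPA overlaps between shDDX41 #1 and sh-Control.

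Of 19 listed relatives, partners and regulators of the 9 factors 14 were tested, and 7 were called with shDDX41 #1 (4 higher, 3 lower, median log2 fold change 0.12) and 7 with shDDX41 #2 (3 higher, 4 lower, median -0.052), where 47.8% and 25% of all tested genes were called. With shDDX41 #1 this share is near that of all genes. TRIB1, a pseudokinase that with the ubiquitin ligase COP1 (RFWD2 in the table) marks C/EBPα for degradation, rose 2.77-fold with shDDX41 #1 (1.47, SE 0.131, adjusted p = 4.4e-07) and was at 0.986 of control with shDDX41 #2 (adjusted p = 0.93), a difference between the hairpins of 1.49 (adjusted p = 3.9e-07). It was measured at 70.8, 51.3 and 46.9 CPM in sh-Control, 173, 162 and 133 CPM with shDDX41 #1, and 58.6, 57.8 and 49.9 CPM with shDDX41 #2. The shDDX41 #1 libraries all lay above the rest.

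CBFB, the partner subunit that stabilises RUNX proteins on DNA, was measured at 114, 117 and 125 CPM in sh-Control, 58.8, 55.9 and 62.5 CPM with shDDX41 #1, and 116, 115 and 119.5 CPM with shDDX41 #2. It fell to 49.8% of control with shDDX41 #1 (log2 fold change -1.0, SE 0.0665, adjusted p = 2.5e-08), was at 98.6% of control with shDDX41 #2 (adjusted p = 0.85), and differed between the hairpins (adjusted p = 3.1e-08). ZEB1, the relative of ZEB2, was measured at 2.83, 3.56 and 3.90 CPM in sh-Control, 4.22, 3.83 and 3.94 CPM with shDDX41 #1, and 12.3, 13.5 and 13.3 CPM with shDDX41 #2. It rose 3.80-fold with shDDX41 #2 (1.92, SE 0.138, adjusted p = 2.4e-07) and was not called with shDDX41 #1 (0.22, adjusted p = 0.26), and the hairpins differed by -1.70 (adjusted p = 1.6e-07).

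Of the remaining relatives and partners, SPIB, an ETS factor close to PU.1, fell with shDDX41 #1 (-0.83, adjusted p = 0.0047). SPIB was not called with shDDX41 #2 (0.44, adjusted p = 0.099), and the hairpins differed by -1.27 (adjusted p = 1.3e-04). CBFA2T3, a corepressor, rose with both hairpins (0.31, adjusted p = 0.019, and 0.30, adjusted p = 0.043). RUNX2, a relative of RUNX1, also rose with both (0.24, adjusted p = 0.028 with shDDX41 #1, and 0.28, adjusted p = 0.023 with shDDX41 #2). DDIT3, the C/EBP relative CHOP that pairs with and blocks other C/EBP proteins, fell with shDDX41 #2 to 51.6% of control (-0.96, adjusted p = 1.1e-04). With shDDX41 #1 its value had the opposite sign and was not called (0.29, adjusted p = 0.065), and the hairpins differed by 1.25 (adjusted p = 2.3e-06). The corepressor CTBP2 fell with both, to 85.3% of control with shDDX41 #1 (-0.23, adjusted p = 0.033) and to 70.3% with shDDX41 #2 (-0.51, adjusted p = 5.0e-04). The balance of directions moved with the scaling: with shDDX41 #1 it was 7 higher and 2 lower under upper quartile scaling and 2 higher and 3 lower under library size scaling, and with shDDX41 #2 it was 1 higher and 4 lower under library size scaling. Over all genes, these calls were 3849 higher and 2453 lower, 2843 higher and 3131 lower, and 1290 higher and 1824 lower. In the main fit they were 3010 and 3068 with shDDX41 #1, and 1469 and 1705 with shDDX41 #2. The count with shDDX41 #1 was 4 without sh-Control A and 3 without shDDX41 #1 A, where 43.5% and 42.1% of the genes then tested were called. The count with shDDX41 #2 was 4 without sh-Control B, shDDX41 #2 A or shDDX41 #2 D, and 3 without shDDX41 #2 B. In those fits 17.8%, 17.6%, 16.5% and 15.9% of the genes then tested were called, so fewer calls were made over all genes as well. With single libraries left out, the calls were 1 to 4 higher with shDDX41 #1 and 1 to 3 higher with shDDX41 #2. Over all genes, the higher calls in such fits were 2639 to 3180 and 946 to 2093.

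Of 23 other factors of blood cell fate 21 were tested, and 12 were called with each hairpin (8 higher and 4 lower with shDDX41 #1, 4 higher and 8 lower with shDDX41 #2, median 0.15 and -0.20), where 47.8% and 25% of all tested genes were called. Under library size scaling, the calls with shDDX41 #2 were 2 higher and 8 lower, where those over all genes were 1290 higher and 1824 lower. The 4 higher calls with shDDX41 #2 became 1 without sh-Control D or shDDX41 #2 B, and 2 without shDDX41 #2 A or shDDX41 #2 D. Over all genes, the higher calls in those fits were 1154, 946, 1051 and 973, in place of 1469. GATA2, a factor of stem and progenitor cells that opposes PU.1, was measured at 61.2, 44.3 and 49.9 CPM in sh-Control, 17.9, 19.5 and 17.7 CPM with shDDX41 #1, and 24.2, 22.9 and 23.5 CPM with shDDX41 #2. Every sh-Control library lay above both hairpins. GATA2 fell to 35.5% of control with shDDX41 #1 (-1.50, adjusted p = 4.9e-08) and to 45.5% with shDDX41 #2 (-1.14, adjusted p = 2.7e-06). BCL6, a repressor, rose 2.01-fold and 1.90-fold (adjusted p = 3.2e-06 and 2.8e-05), and IRF5, an activator of inflammatory macrophage genes, rose 1.28-fold and 1.25-fold (adjusted p = 0.0028 and 0.013).

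KLF4, a monocyte factor that IRF8 is known to activate, was called with 1 hairpin. KLF4 rose 2.32-fold with shDDX41 #1 (1.21, adjusted p = 1.2e-05) and was at 0.873 of control with shDDX41 #2 (-0.20, adjusted p = 0.40), and the hairpins differed by 1.41 (adjusted p = 2.9e-06). MYC, the growth factor-driven activator of cell growth, went in opposite directions, with 421 CPM in sh-Control. It rose to 594 CPM with shDDX41 #1 (0.50, adjusted p = 1.1e-04) and fell to 276 CPM with shDDX41 #2 (-0.61, adjusted p = 6.2e-05). ID2, an inhibitor of helix-loop-helix factors, fell with both (-0.76, adjusted p = 1.2e-06, and -0.36, adjusted p = 0.0027).

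**Figure D4:**
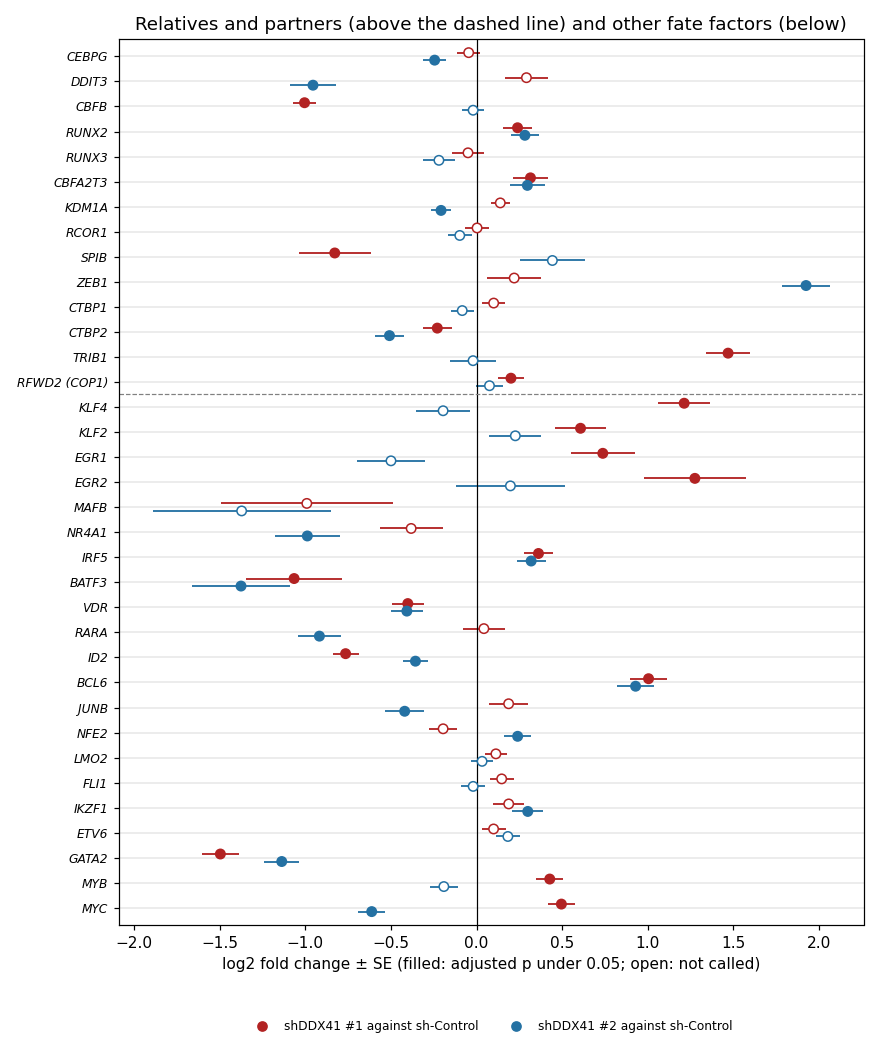
Log2 fold change ± SE against sh-Control for the tested relatives and partners (above the dashed line) and other fate factors (below it). Filled points passed an adjusted p under 0.05. TRIB1 at 1.47 and CBFB at -1.0 are filled for shDDX41 #1 alone, ZEB1 at 1.92 for shDDX41 #2 alone, and GATA2 lies to the left for both.

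Of 19 genes served by PU.1 and C/EBP proteins 18 were tested. With shDDX41 #1, 11 were called (6 higher, 5 lower, median 0.076), and with shDDX41 #2, 6 were called (6 higher, 0 lower, median 0.12), where 47.8% and 25% of all tested genes were called. Without sh-Control B, 1 gene was called lower with shDDX41 #2. With shDDX41 #1, the receptor gene IL6R rose 1.28-fold (adjusted p = 2.5e-04). CSF1R, the receptor for macrophage colony-stimulating factor, fell to 55.1% of control (-0.86, adjusted p = 3.8e-05), and FCGR1A, an Fc receptor, to 60.9% (-0.71, adjusted p = 4.4e-06). CSF3R, the receptor for granulocyte colony-stimulating factor, was called with neither hairpin (0.042 and 0.019, adjusted p = 0.65 and 0.88).

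LYZ, the lysozyme gene, was measured at 877, 931 and 987 CPM in sh-Control, 859, 838 and 915 CPM with shDDX41 #1, and 1833, 1827 and 1795 CPM with shDDX41 #2. It rose 1.95-fold with shDDX41 #2 (0.96, SE 0.0658, adjusted p = 1.6e-07) and was at 93.5% of control with shDDX41 #1 (adjusted p = 0.23), and the hairpins differed by -1.06 (adjusted p = 1.4e-08). MPO, the myeloperoxidase of primary granules, rose 1.50-fold with shDDX41 #2 (adjusted p = 2.8e-05). CTSG, a granule protease, fell with shDDX41 #1 (-0.36, adjusted p = 4.7e-04) and rose with shDDX41 #2 (0.36, adjusted p = 0.0014), and the hairpins differed (-0.72, adjusted p = 7.3e-07).

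Of 10 genes listed as late granule genes, 3 were tested, namely BPI, S100A8 and S100A9. These 3 are not specific to late granules, and they are not read here as genes served by CEBPE. LTF, MMP8, CRISP3 and OLFM4 were at 0 in every library, and LCN2, CAMP and MMP9 did not pass the filter on low counts. BPI, a bactericidal granule protein, was measured at 45.7, 36.3 and 41.8 CPM in sh-Control, 25.8, 29.3 and 26.6 CPM with shDDX41 #1, and 88.6, 95.7 and 92.2 CPM with shDDX41 #2. The 3 groups did not overlap. BPI fell to 66.0% of control with shDDX41 #1 (-0.60, adjusted p = 6.0e-05) and rose 2.23-fold with shDDX41 #2 (1.16, adjusted p = 2.4e-07). S100A9, a calcium-binding protein of neutrophils and monocytes, rose with shDDX41 #2 from 1.77 to 5.80 CPM (1.71, SE 0.257, adjusted p = 2.4e-04) and was not called with shDDX41 #1 (-0.42, adjusted p = 0.29).

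Of 10 genes known as targets of IRF8, 9 were tested, and some of these, such as KLF4 and CYBB, are also counted in the lists above. With shDDX41 #1, 7 were called (6 higher, 1 lower, median 0.36), and with shDDX41 #2, 5 were called (5 higher, 0 lower, median 0.40). Of all tested genes, 47.8% and 25% were called in either direction, and 23.7% and 11.6% were called higher. FANCF, a Fanconi anemia gene, rose 1.89-fold with shDDX41 #1 (0.92, adjusted p = 2.8e-06) and 1.31-fold with shDDX41 #2 (0.39, adjusted p = 0.010). CST3, the cystatin C gene of monocytes and dendritic cells, rose 1.28-fold and 1.61-fold (adjusted p = 0.0038 and 6.6e-05), and PML rose 1.21-fold and 1.38-fold (adjusted p = 0.028 and 0.0024). CIITA, the activator of MHC class II genes, rose 1.88-fold and 1.96-fold from a low level of 1.47 CPM (adjusted p = 0.0024 and 0.0036). NF1, a Ras inhibitor, fell to 70.2% of control with shDDX41 #1 (-0.51, adjusted p = 5.5e-04) and was not called with shDDX41 #2 (-0.11, adjusted p = 0.44).

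**Figure D5:**
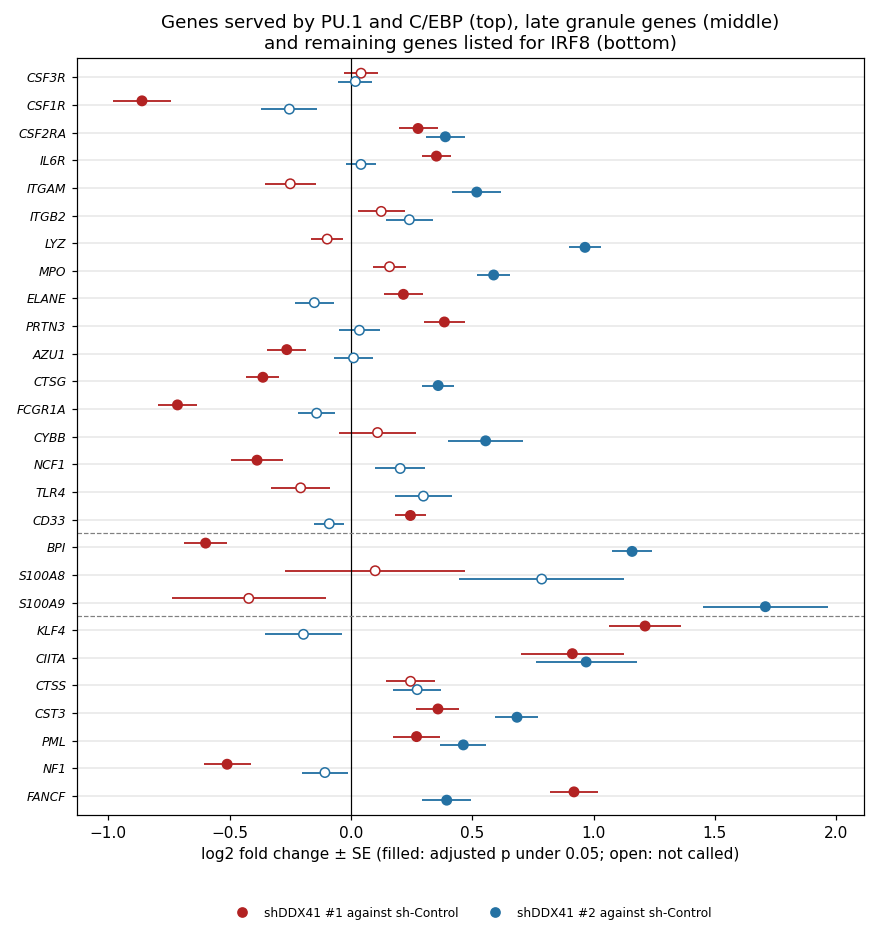
Log2 fold change ± SE against sh-Control for the tested and reported genes served by PU.1 and C/EBP (top), the tested genes of the late granule list (middle: BPI, S100A8 and S100A9) and the remaining genes listed for IRF8 (bottom). Filled points passed an adjusted p under 0.05. LYZ at 0.96 is filled for shDDX41 #2, while BPI and CTSG are filled on opposite sides of 0.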

How the data were processed

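RNA was sequenced from sorted MOLM13 cells, and the authors deposited whole-number counts per gene, not normalized, for 9 libraries. The submitters' processing notes name FastQC 0.11.7, HISAT2 2.0.5 and featureCounts 1.5.2 with the builds mm10 and hg38. The annotation and the strand setting are not given in the sources used here, and 0 columns were left unmapped. Genes were kept by filterByExpr (minimum count 10), scaled by TMM and fitted in R 4.3.3 with edgeR 4.0.16 (quasi-likelihood, all 9 libraries, 1 coefficient per group). Tests were two-sided, with Benjamini-Hochberg adjustment over 12712 genes within each comparison and calls at an adjusted p under 0.05. The SE is the log2 fold change divided by the square root of F. The biological coefficient of variation was 0.0768, and counting error exceeds it for genes with few counts, such as CEBPE. The script was tested on simulated data.

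The 9 factors and the gene lists were chosen with earlier results of these data known. DDX41 and all 9 factors were named. From each other list and hairpin, up to 2 called genes of smallest adjusted p in each direction were named, with genes that bear on a counted statement, and CSF3R, CTSG and CIITA were named after their values were seen. Some genes that the rule or a list includes are not reported here by name, but are counted. Genes alike to a factor were the 3 of highest Pearson r among tested genes with at least 5 CPM. Alternatives were DESeq2 1.42.0 (size factors or its Wald test), limma 3.58.1 voom, upper quartile or library size scaling, other filters, fits of only the 6 libraries under comparison, a block for the replicate letter, leaving out every library in turn, and an adjusted p under 0.01. Promoter sequences are from RefSeq.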

Additional observations from a re-analysis of the deposited data

Results flagged for a closer look

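The effects of the hairpins on 3 factors differed by edgeR's test of the difference itself, shDDX41 #1 minus shDDX41 #2, with the same sh-Control libraries behind both effects. IRF8 differed by 0.61 on the log2 scale (adjusted p = 2.8e-06), with 3 of 3 shDDX41 #1 libraries above every shDDX41 #2 library. GFI1 differed by 0.32 (adjusted p = 0.0010), with effects of opposite sign against sh-Control that did not pass the test on their own. CEBPB differed by 0.36 (adjusted p = 0.032), and this call was lost in 4 of 18 alternative fits. The hairpins also differ in residual DDX41, at 10.2% and 35.2% of control, and the part of that difference in these values was not tested.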

How the results depend on the processing

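IRF8 in all comparisons, CEBPE with shDDX41 #1 against sh-Control and GFI1 between the hairpins were called under all 18 alternative fits and at an adjusted p under 0.01. Of the comparisons of single factors with their value in the main analysis, 451 kept direction and side of the threshold, 8 newly passed, 4 no longer passed and 23 changed sign. The number of factors called with shDDX41 #1 was 2 to 4 when single libraries were left out (4 without shDDX41 #1 D), where 41.5% to 48.5% of all tested genes were called. Under upper quartile scaling it was 3, with GFI1 added (0.22, adjusted p = 0.0099), where 49.6% of tested genes were called. With shDDX41 #2 it was 1 to 3 with single libraries left out, where 15.9% to 32.9% of tested genes were called. It was 2 without sh-Control B (17.8% of tested genes) and 3 without shDDX41 #1 D (32.9%). With only the 6 libraries compared it was 3, with GFI1 and CEBPD added, where 32% of tested genes were called. Between the hairpins it was 2 to 3 with single libraries left out, where 40.1% to 49% of tested genes were called. It was 2 at an adjusted p under 0.01, which CEBPB does not pass, and the share of all genes at that threshold was not computed. The sign changes were all of uncalled values near 0, and the cause was not tested. For shDDX41 #1 against sh-Control, upper quartile scaling gave 0.0725 for SPI1, 0.0259 for CEBPD and 0.0561 for RUNX1, a minimum of 10 counts in every library gave 0.00718 for SPI1, and library size scaling gave -0.0101 for ZEB2. With single libraries left out, the values ranged from -0.0433 to 0.0472 for SPI1, -0.0502 to 0.119 for CEBPA, -0.00176 to 0.218 for CEBPB, -0.181 to 0.0260 for CEBPD, -0.0860 to 0.0762 for RUNX1 and -0.0562 to 0.0736 for ZEB2. RUNX1 ranged from -0.0435 to 0.0604 with shDDX41 #2 and from -0.0916 to 0.0445 between the hairpins. The deviations of samples that share a replicate letter correlated at 0.0725 to 0.243 between shDDX41 #1 and sh-Control and at -0.0574 to 0.0225 in the other comparisons. Not every pair was over 0.1, so the letters were not read as pairs. With the letter as a replicate block, 2, 1 and 3 factors were called, the same numbers as without it. Of all tested genes, 50%, 28.1% and 51.2% were then called, in place of 47.8%, 25% and 48.8%. Factors with non-overlapping libraries numbered 2, 3 and 5 under library size scaling, in place of 3, 3 and 5. The share of all genes without overlap was 53.1%, 43.8% and 57.7% in the main scaling, and was not computed under library size scaling. CEBPE, at 21 to 66 counts, is the factor most limited by depth.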
